A study of Arabidopsis thaliana with 24 samples.

Results

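The genes described here are 9 Arabidopsis thaliana loci of cold and stress responses, 9 of the 33602 loci counted by RNA sequencing. They were chosen by locus code: CBF1 (AT4G25490), CBF2 (AT4G25470), CBF3 (AT4G25480), ZAT10 (AT1G27730), ZAT12 (AT5G59820), COR15A (AT2G42540), COR15B (AT2G42530), COR47 (AT1G20440) and RD29A (AT5G52310). Lower CBF1 and ZAT10 values in pxy and 41-OX shoots were already known when the genes were chosen. Values of these 9 genes that involve shoots, between genotypes or between organs, are therefore given as a description without p-values, with counts of genes past the threshold given once, and tests are given for roots.

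Seedlings of 3 genotypes were split into root and shoot at 7 days of age, with 4 biological replicates in each of the 6 groups. The pxy seedlings carry the pxy-5 allele of PXY, the receptor kinase gene of vascular cell division, 41-OX seedlings express CLE41, the gene of its peptide ligand, constitutively, and wild type (WT) is Col-0, the background against which both are set. The labels name no cold treatment and neither the promoter of the 41-OX transgene nor the number of lines. The library labelled pxy root 2 and the shallow library WT shoot 2 were left out, so 22 of 24 libraries were used: 3 pxy, 4 41-OX and 4 WT root libraries, and 4 pxy, 4 41-OX and 3 WT shoot libraries.

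CBF1, CBF2 and CBF3 encode transcription factors that rise quickly when plants are cooled and bind the CRT/DRE element, whose core letters are CCGAC, in the promoters of cold-regulated genes. COR15A, COR15B, COR47 and RD29A are such target genes, and RD29A and COR47 also respond to drought and abscisic acid. ZAT10 and ZAT12 encode zinc finger repressors that are induced by cold, wounding and oxidative stress. In unstressed seedlings the CBF genes are known to follow the circadian clock, light quality and mechanical stimulation.

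The 22 libraries held 7033091 to 12226066 counts, and WT shoot 2 held 167131. Levels are TMM-scaled CPM, the share of a library's counts that a gene takes, and log2 changes come from edgeR with their standard error (SE). Calls rest on p-values adjusted by Benjamini-Hochberg across the genes of each fit, with a threshold of 0.05. CLE41 was at 26.3 to 33.3 CPM in 41-OX roots, against 8.25 to 10.1 CPM in WT roots, and at 27.7 to 29.7 CPM in 41-OX shoots, against 15.5 to 21.95 CPM in WT shoots. PXY was at 35.8 to 42.6 CPM in pxy shoots, against 9.14 to 11.5 CPM in WT shoots. The PXY level in pxy roots (12.7 to 18.5 CPM) overlapped that of WT roots (14.6 to 23.6 CPM). The library labelled pxy root 2 held 8 shoot markers at 89.9% of the WT shoot mean and 10 root markers at 14.6% of the WT root mean, which goes against its label. In these percentages its own CPM was without TMM scaling, while the WT means were TMM-scaled. Among the libraries used, 41-OX root 4 held shoot markers at 15.1% of the WT shoot mean, against 0.600% to 3.22% in the other 10 root libraries. The 41-OX shoots held root markers at 15.4% to 21.2% of the WT root mean, against 3.49% to 5.96% in pxy and WT shoots.

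The 3 CBF genes form a cluster of 7747 bases on chromosome 4, minus strand. In coordinates of TAIR10.1, CBF2 lies at chr4:13015250-13016235, CBF3 at chr4:13018010-13019400 and CBF1 at chr4:13021780-13022996, each with 1 exon. Their coding sequences were 87.5% (CBF1 and CBF2), 86.9% (CBF1 and CBF3) and 87.5% (CBF2 and CBF3) identical, but only 2.48% of the 50-base stretches of CBF1 occurred in CBF2 and none in CBF3. COR15B (chr2:17708593-17710433) and COR15A (chr2:17710441-17712330) are neighbours on the minus strand with 83.8% identical coding sequences and no shared stretch of 50 bases. COR15B overlaps AT2G42520 on the other strand by 468 bases. With no strand setting or overlap mode stated, it is not known how reads there were counted, or whether they were left out as ambiguous. The other 4 genes lie on chromosomes 1 and 5: ZAT10 at chr1:9648021-9649323 and COR47 at chr1:7084409-7086873 on the minus strand, and ZAT12 at chr5:24102814-24103794 and RD29A at chr5:21240717-21243644 on the plus strand.

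The bases before the annotated start are shown for the 3 genes whose windows hold the CRT/DRE core and for CBF1, whose window does not, since the CBF factors and their target genes are compared below. Each sequence is the 250 bases upstream of the RefSeq start in TAIR10.1, 5′ to 3′ on the strand of the gene, with CCGAC or its reverse complement GTCGG in capitals. The windows are chr5:21240467-21240716 on the plus strand for RD29A, and chr2:17712331-17712580 for COR15A, chr1:9649324-9649573 for ZAT10 and chr4:13022997-13023246 for CBF1 on the minus strand.
RD29A: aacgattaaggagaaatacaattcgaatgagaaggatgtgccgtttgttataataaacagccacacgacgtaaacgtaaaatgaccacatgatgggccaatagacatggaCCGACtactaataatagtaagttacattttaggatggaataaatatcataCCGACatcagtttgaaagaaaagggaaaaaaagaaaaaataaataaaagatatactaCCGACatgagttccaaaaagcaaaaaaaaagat
COR15A: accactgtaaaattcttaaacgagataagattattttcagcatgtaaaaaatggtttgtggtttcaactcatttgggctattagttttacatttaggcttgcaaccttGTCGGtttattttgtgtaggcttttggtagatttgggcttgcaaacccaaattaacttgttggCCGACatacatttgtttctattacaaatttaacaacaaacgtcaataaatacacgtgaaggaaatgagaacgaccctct
ZAT10: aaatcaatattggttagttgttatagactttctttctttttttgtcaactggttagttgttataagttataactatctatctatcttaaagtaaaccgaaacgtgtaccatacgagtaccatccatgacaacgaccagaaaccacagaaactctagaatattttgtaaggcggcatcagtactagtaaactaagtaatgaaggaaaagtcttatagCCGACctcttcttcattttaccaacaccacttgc
CBF1: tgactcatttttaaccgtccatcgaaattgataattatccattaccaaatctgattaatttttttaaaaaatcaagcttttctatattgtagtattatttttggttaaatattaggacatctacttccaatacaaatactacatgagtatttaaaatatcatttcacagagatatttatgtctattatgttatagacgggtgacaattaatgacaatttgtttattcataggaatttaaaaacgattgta
RD29A held 3 cores, starting 140, 90 and 33 bases before the start, COR15A held 2 (142 and 79 bases before it) and ZAT10 held 1 (34 bases before it). A core on either strand was found in 12.2% of 32834 windows of all genes, and 1.49% held 2 or more. In the 500 bases before the start codon, 5 of the 9 genes held a core, against 23.4% of 26711 such windows. The evening element AAATATCT, a motif of clock-regulated promoters, was on either strand of the 250-base windows of CBF1, CBF2, CBF3 and ZAT12, against 4.52% of all windows. In the 500 bases before the start codon 5 of the 9 genes held it, against 8.32% of such windows. There CBF1 held none, while COR15A and COR15B held it. The window of COR15B lies inside the gene COR15A and is not shown. RefSeq starts may differ from those of the annotation behind the counts.

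In shoots the 3 CBF genes were lower in both pxy and 41-OX than in WT, with the lowest means in 41-OX. CBF1 was at 8.15, 8.91, 6.93 and 10.4 CPM in pxy shoots and at 4.22, 2.54, 3.57 and 4.83 CPM in 41-OX shoots, against 19.5, 27.7 and 18.4 CPM in WT shoots (replicates 1, 3 and 4). The 3 groups did not overlap, and every 41-OX shoot was below every pxy shoot. The log2 change was -1.35 (SE 0.18) for pxy against WT, -2.54 (SE 0.20) for 41-OX against WT and -1.19 (SE 0.21) for 41-OX against pxy.

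CBF2 was at 12.9, 18.4, 13.5 and 13.3 CPM in pxy shoots and at 8.43, 9.02, 7.30 and 9.67 CPM in 41-OX shoots, against 27.2, 46.1 and 22.8 CPM in WT shoots. Again the 3 groups were apart in the same order, with log2 changes of -1.16 for pxy and -1.90 for 41-OX against WT. CBF3 was the lowest of the 3, also per kb of exon, at 1.63, 1.78, 2.86 and 2.32 CPM in pxy shoots and 1.97, 0.694, 1.09 and 1.83 CPM in 41-OX shoots, against 3.90, 4.37 and 7.45 CPM in WT shoots. Both pxy and 41-OX lay below WT for CBF3, and they overlapped each other. These CBF3 values rest on 62 counts over the pxy shoots, 41 over the 41-OX shoots and 125 over the WT shoots. In whole shoots, fewer cells expressing a gene and less RNA per cell cannot be told apart.

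**Figure D1:**
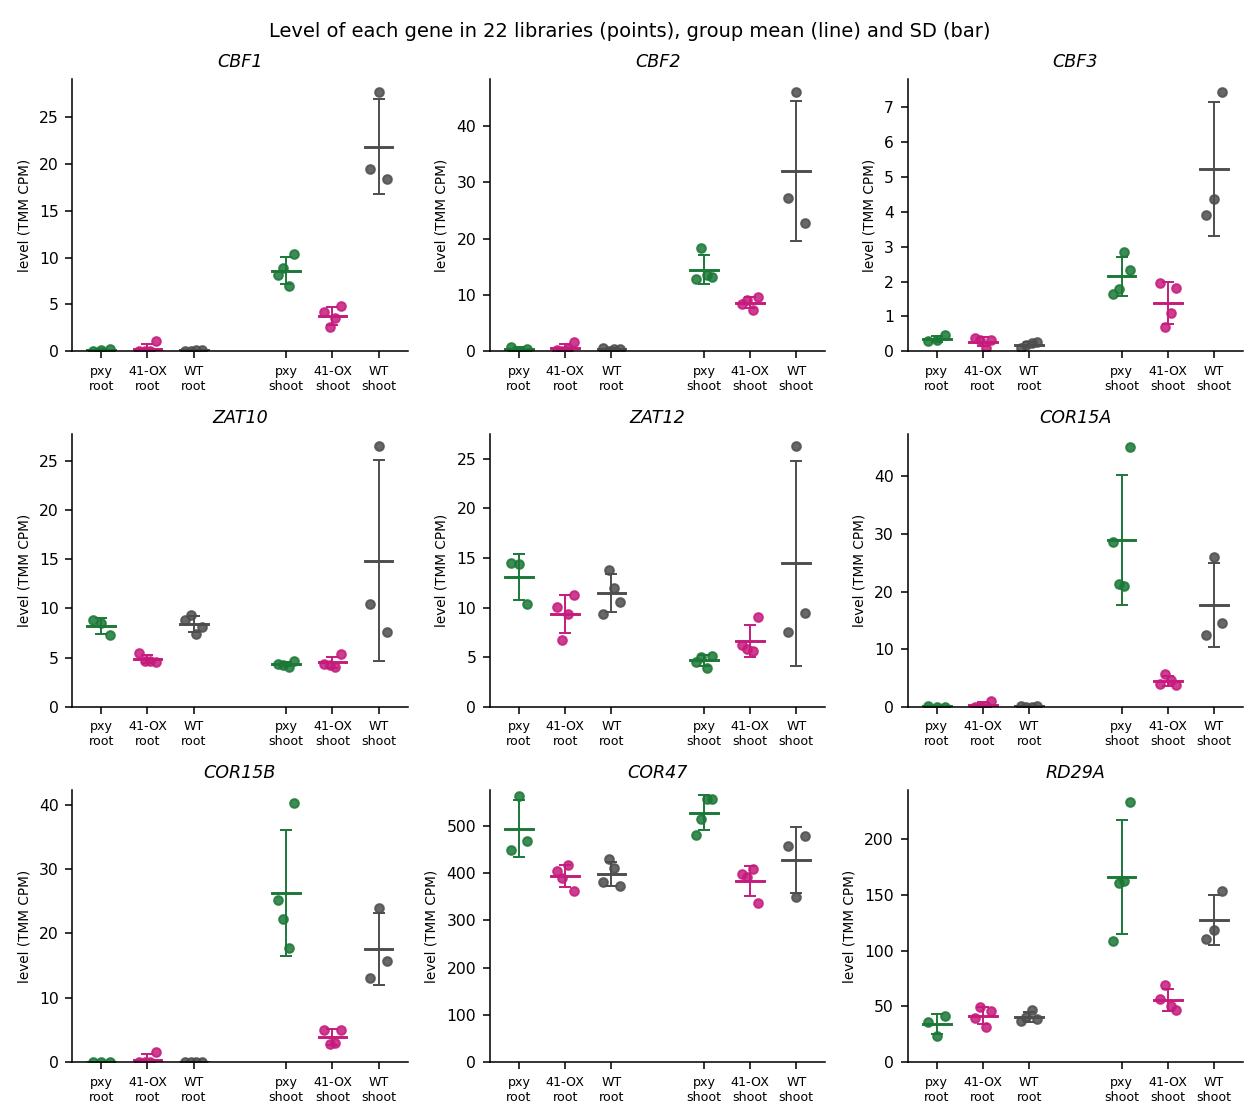
Level of each of the 9 genes (TMM-scaled CPM, linear axes from 0) in the 22 libraries, by genotype and organ. Points are libraries, lines are group means and bars are SDs. The CBF genes are lower in pxy and 41-OX shoots, while COR15A, COR15B and RD29A are lower in 41-OX shoots and not in pxy shoots.

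The target genes did not follow this order. COR15A, which encodes a chloroplast protein that protects membranes during freezing, was at 28.7, 21.2, 20.9 and 45.0 CPM in pxy shoots and 3.93, 5.67, 4.66 and 3.79 CPM in 41-OX shoots, against 12.5, 25.9 and 14.6 CPM in WT shoots. Every 41-OX shoot lay below every other shoot, while pxy and WT shoots overlapped, with the higher mean in pxy. COR15B, its close relative, gave the same picture at 25.3, 22.2, 17.7 and 40.2 CPM in pxy shoots and 5.06, 2.89, 2.95 and 4.96 CPM in 41-OX shoots, against 13.1, 23.9 and 15.8 CPM in WT shoots. The log2 changes were 0.69 and 0.57 for pxy against WT and -1.97 and -2.16 for 41-OX against WT, for COR15A and COR15B in this order.

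RD29A, also named LTI78, was at 109, 160.4, 162 and 233 CPM in pxy shoots and 56.4, 69.4, 50.8 and 47.0 CPM in 41-OX shoots, against 111, 118 and 153 CPM in WT shoots. The pxy and WT values overlapped and the 41-OX values were below both, with log2 changes of 0.40 (SE 0.24) for pxy and -1.17 (SE 0.25) for 41-OX against WT. COR47, a dehydrin gene, was the least changed against WT. It stood at 481, 515, 557 and 556 CPM in pxy shoots and 398, 391, 408 and 336 CPM in 41-OX shoots, against 457, 349 and 479 CPM in WT shoots. All pxy shoots were above all WT shoots for COR47, by 0.31 (SE 0.10) on the log2 scale, and the 41-OX shoots overlapped WT.

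The 2 zinc finger genes had lower means in pxy and 41-OX shoots than in WT shoots. ZAT10, named STZ in RefSeq, was at 4.40, 4.25, 4.08 and 4.64 CPM in pxy shoots and 4.36, 4.28, 4.04 and 5.36 CPM in 41-OX shoots, against 10.4, 26.5 and 7.60 CPM in WT shoots. The pxy and 41-OX shoots overlapped each other and lay below all 3 WT shoots, among which WT shoot 3 was far above the other 2. ZAT12, named RHL41 in RefSeq, was at 4.56, 5.07, 3.94 and 5.16 CPM in pxy shoots and 6.18, 5.78, 5.60 and 9.01 CPM in 41-OX shoots, against 7.54, 26.3 and 9.50 CPM in WT shoots. Here pxy lay below WT, and 41-OX shoot 4 overlapped it, while all 41-OX shoots were above all pxy shoots for ZAT12.

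WT shoot 3 was the highest WT shoot for CBF1, CBF2, ZAT10, ZAT12, COR15A and COR15B and the lowest for COR47. Without it the log2 change of ZAT10 was -1.05 in place of -1.81 for pxy and -0.99 in place of -1.75 for 41-OX against WT. That of ZAT12 was -0.85 in place of -1.66 for pxy and -0.34 in place of -1.15 for 41-OX. CBF1 moved less, to -1.13 for pxy and -2.32 for 41-OX, and CBF2 to -0.78 and -1.52. COR15A then stood at 1.11 for pxy and -1.56 for 41-OX.

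Of the 9 genes, 4 were past the threshold and lower in pxy shoots against WT (CBF1, CBF2, CBF3 and ZAT10), where 1.26% of 20163 genes tested were called lower and 1.7% called either way. In 41-OX against WT shoots 8 were called lower, all but COR47, where 15.8% of genes were called lower and 15.1% higher. In 41-OX against pxy shoots 6 were called lower (CBF1, CBF2, COR15A, COR15B, COR47 and RD29A), where 14.7% of genes were and 14.5% were called higher. Nothing is read from these counts, because shoot results were known when the genes were chosen, and the comparisons with WT share its 3 shoots. Without WT shoot 3, CBF3 was lost in pxy, which left 3, and in 41-OX ZAT12 was lost and COR47 was gained, which left 8 that are not the same genes. Without pxy shoot 1, 2 or 4 only 2 were called in pxy. Root markers stood higher in all 41-OX shoots than in pxy and WT shoots, as given above, and their part in the 41-OX values was not tested.

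**Figure D2:**
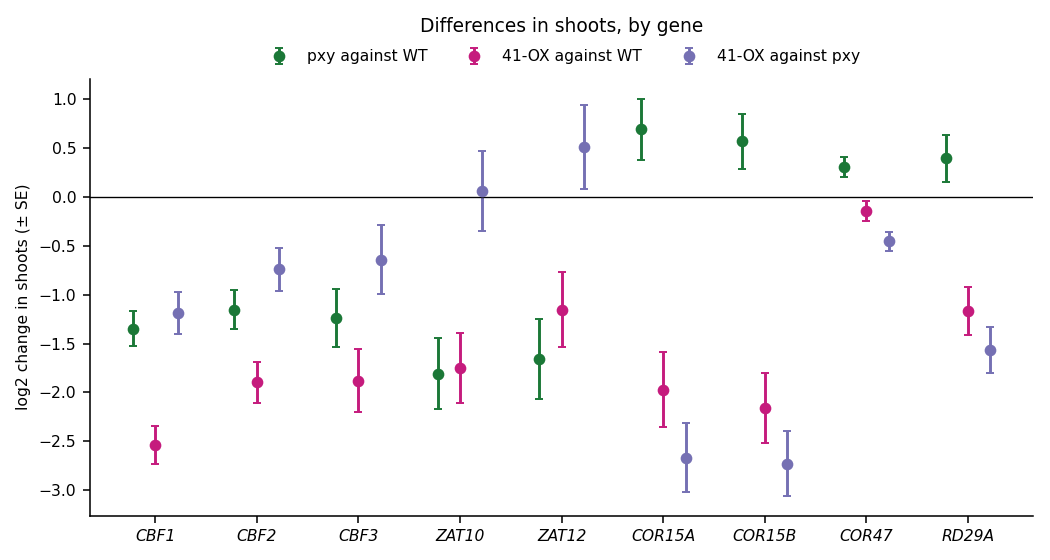
Log2 change (points) with its SE (bars) of the 9 genes in shoots for pxy against WT, 41-OX against WT and 41-OX against pxy. The CBF genes are below 0 in both comparisons with WT, while COR15A, COR15B and RD29A are above 0 in pxy (0.69, 0.57 and 0.40) and below 0 in 41-OX (-1.97, -2.16 and -1.17).

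Levels of different genes were compared per kilobase of annotated exon (CPM per kb). In WT shoots the order of the means was COR47, RD29A, CBF2, CBF1, ZAT12, ZAT10, COR15A, COR15B and CBF3, from 184.6 ± 30.0 CPM per kb for COR47 to 3.77 ± 1.39 CPM per kb for CBF3 (SD, n = 3). The ranges of COR47 and RD29A, of CBF2 and CBF1 and of COR15B and CBF3 did not overlap, and the other neighbours in this order did. In pxy shoots COR15A and COR15B came directly after RD29A, at 18.3 ± 7.11 and 16.6 ± 6.16 CPM per kb (SD, n = 4), and CBF1 stood at 7.07 ± 1.21 CPM per kb. In 41-OX shoots COR15A was at 2.85 ± 0.542 CPM per kb and CBF1 at 3.12 ± 0.804 CPM per kb (SD, n = 4).

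Within single libraries, COR15A per kb was 1.83 to 3.31 times CBF1 per kb in the pxy shoots, 0.602 to 1.71 times in the 41-OX shoots, against 0.492 to 0.719 times in WT shoots. The pxy libraries were thus above all others in this ratio. For RD29A over CBF1 the ratio ran over 6.10 to 10.7 in the pxy shoots, 4.45 to 12.5 in the 41-OX shoots, against 1.95 to 3.79 in WT shoots. Both pxy and 41-OX were above WT here, and they overlapped each other, while RD29A itself was lower in 41-OX than in WT shoots. Low CBF1 in pxy and 41-OX shoots was known when the genes were chosen, so ratios over CBF1 are a description that carries this choice. CBF2 over CBF1 was 1.57 to 2.54 in the pxy shoots, 2.47 to 4.38 in the 41-OX shoots, against 1.53 to 2.05 in WT shoots. COR15A over COR15B per kb was 0.957 to 1.18 in the pxy shoots, with a wider range of 0.763 to 1.96 in the 41-OX shoots, against 0.926 to 1.08 in WT shoots.

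In roots ZAT10 fell in 41-OX. It was at 8.80, 8.51 and 7.28 CPM in pxy roots (replicates 1, 3 and 4) and 5.44, 4.64, 4.65 and 4.59 CPM in 41-OX roots, against 8.83, 9.28, 7.42 and 8.08 CPM in WT roots. All 4 41-OX roots lay below every pxy and WT root, while pxy and WT roots overlapped. The log2 change of 41-OX against WT roots was -0.81 (SE 0.14), with an adjusted p of 0.00253 by edgeR's quasi-likelihood test, and that of 41-OX against pxy roots was -0.78 (SE 0.15, adjusted p = 0.00456). For pxy against WT roots it was -0.03 (SE 0.15, adjusted p = 0.962). Leaving out any 1 library kept both ZAT10 calls in 41-OX, with adjusted p up to 0.0118 against WT and 0.0237 against pxy. In the fit of all 22 libraries of both organs the calls were lost (adjusted p = 0.0502 and 0.0632), and with all 24 libraries as labelled the call against WT was lost (0.0933).

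ZAT12 was not called in roots. It stood at 14.5, 14.4 and 10.4 CPM in pxy roots and 10.1, 6.74, 9.38 and 11.3 CPM in 41-OX roots, against 9.32, 13.8, 12.0 and 10.6 CPM in WT roots, and all groups overlapped. The log2 changes were 0.20 for pxy (adjusted p = 0.699) and -0.31 for 41-OX against WT (adjusted p = 0.378).

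COR47 was at 450, 562 and 468 CPM in pxy roots and 405, 390, 417 and 362 CPM in 41-OX roots, against 381, 429, 411 and 373 CPM in WT roots. The pxy roots lay above all others, as the pxy shoots did above the WT shoots. Against WT roots the log2 change in pxy was 0.31 (SE 0.10, adjusted p = 0.429), which did not pass. COR47 was lower in 41-OX than in pxy roots by edgeR, with a log2 change of -0.35 (SE 0.10, adjusted p = 0.0348), a call that was lost without pxy root 3 or without 41-OX root 1, 2 or 4 (adjusted p up to 0.0923) and with all 24 libraries (0.0978).

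RD29A was not called between root groups. It stood at 36.4, 24.1 and 41.5 CPM in pxy roots and 39.8, 49.4, 32.1 and 45.6 CPM in 41-OX roots, against 36.6, 40.6, 46.4 and 38.9 CPM in WT roots, and the groups overlapped. The log2 change was -0.26 (SE 0.18) for pxy and 0.01 (SE 0.16) for 41-OX against WT. For 41-OX against pxy roots it was 0.27 (adjusted p = 0.361).

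**Figure D3:**
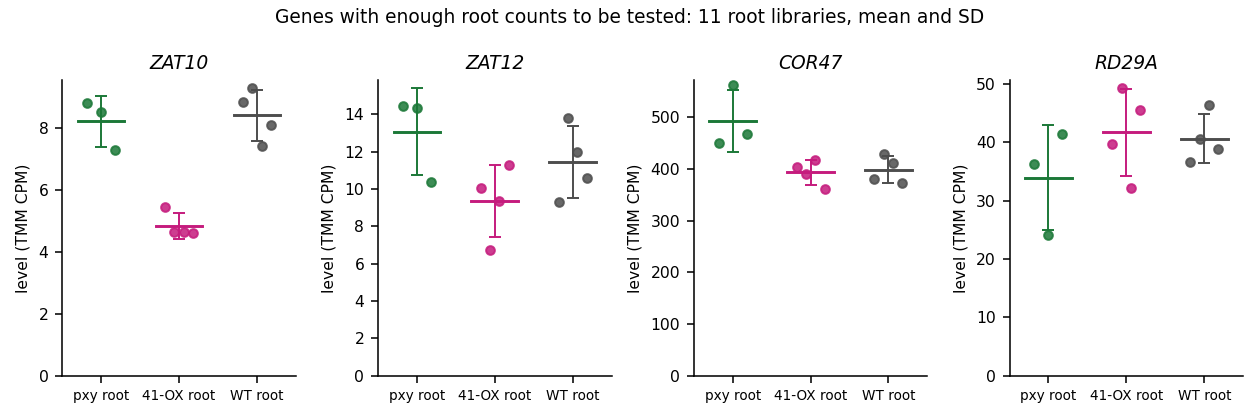
Levels (TMM-scaled CPM, axes from 0) of ZAT10, ZAT12, COR47 and RD29A in the 11 root libraries, with group means (lines) and SDs (bars). The 4 41-OX roots are at 4.59 to 5.44 CPM for ZAT10, below all pxy and WT roots, and the 3 pxy roots are the highest for COR47.

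The other 5 genes, the CBFs and both COR15 genes, did not reach the count minimum in roots and were not tested there, so only 4 of the 9 could be called. In pxy against WT roots none of the 4 was called by edgeR or by DESeq2, and 1 (COR47) had an unadjusted p under 0.05. Of the 20300 genes tested in that comparison, 0.0394% were called. In 41-OX against WT roots 1 of the 4 was called (ZAT10), where 6.56% of all genes were, and in 41-OX against pxy roots 2 were (ZAT10 and COR47), where 9.77% were.

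The CBF and COR15 genes were close to absent from roots. CBF1 had 3 counts over the pxy roots, 11 over the 41-OX roots and 4 over the WT roots, of which 10 of the 41-OX counts came from 41-OX root 4. That library was at 1.04 CPM for CBF1, 1.56 CPM for CBF2, 1.04 CPM for COR15A and 1.67 CPM for COR15B. All other root libraries were at or below 0.231 CPM for CBF1, 0.684 CPM for CBF2, 0.196 CPM for COR15A and 0.0977 CPM for COR15B. The shoot markers stood at 15.1% of the WT shoot mean in the same library, and their part in these counts was not tested. Summed over CBF1, CBF2, CBF3, COR15A and COR15B, 41-OX root 4 had 54 counts, and the other 10 root libraries had 3 to 13.

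CBF3 was the only CBF with separate root groups in one comparison. It was at 0.293, 0.319 and 0.462 CPM in pxy roots and 0.368, 0.332, 0.0845 and 0.313 CPM in 41-OX roots, against 0.0825, 0.189, 0.230 and 0.261 CPM in WT roots. Every pxy root lay above every WT root, where 11% of all genes tested did not overlap in either direction. These are 10 counts over the pxy and 9 over the WT roots, and the WT over pxy ratio of 0.539 has a counting interval of 0.194 to 1.48 (exact 95%), which includes no difference. Intervals cover counting error only.

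**Figure D4:**
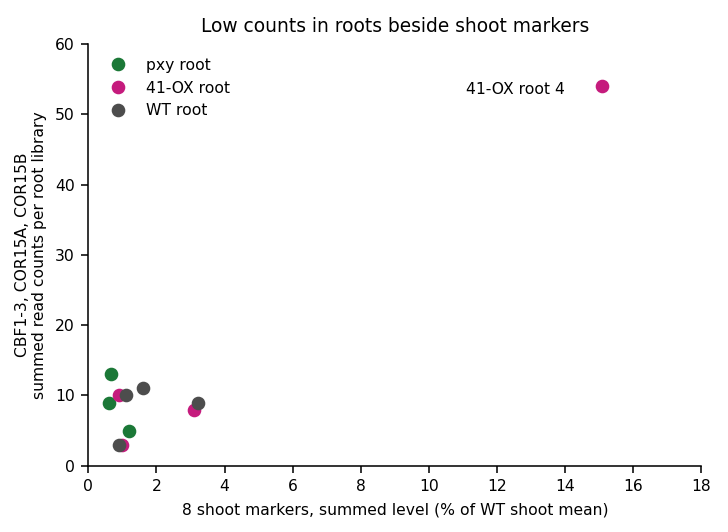
Summed read counts of CBF1, CBF2, CBF3, COR15A and COR15B in each of the 11 root libraries (vertical axis) against the summed level of 8 shoot markers in percent of the WT shoot mean (horizontal axis). The library 41-OX root 4 stands apart at 54 counts and 15.1%, and the other 10 libraries hold 3 to 13 counts at 0.600% to 3.22%.

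Roots and shoots differed for most genes of the genome, with 79.9% of 21397 genes called in pxy, 78.7% in 41-OX and 80.3% in WT. The CBF and COR15 genes passed the count minimum only through the shoots, so their calls there had to follow, and their pooled counts are given in place of a count of calls. CBF1 had 3 counts in pxy roots and 247 in pxy shoots, a shoot over root ratio of 81.6 (exact 95% counting interval 27.6 to 398). In 41-OX the ratio was 15.0 (8.09 to 31.0), and without 41-OX root 4, which leaves 1 count in 3 roots, it was 129 (22.8 to 5155). In WT it was 267 (104 to 982), from 4 counts in roots and 555 in shoots.

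CBF2 gave a shoot over root ratio of 37.4 (20.7 to 75.5) in pxy, 16.6 (10.8 to 26.7) in 41-OX and 99.5 (60.9 to 175) in WT, and without 41-OX root 4 the 41-OX ratio was 37.4 (18.7 to 87.5). CBF3 had the lowest ratio of the 3 CBFs in each genotype, at 6.14 (3.13 to 13.4) in pxy, 5.04 (2.60 to 10.5) in 41-OX and 26.7 (13.6 to 59.7) in WT. COR15A had 2 counts in pxy roots and 834 in pxy shoots, a ratio of 413 (114 to 3417), and 3 counts in WT roots and 457 in WT shoots, a ratio of 293 (99.5 to 1424). In 41-OX its ratio was 16.7 (9.27 to 33.2), and 78.5 (21.3 to 655) without 41-OX root 4. COR15B had 1 count in pxy roots and 1 in WT roots, so its ratios of 752 in pxy and 865 in WT have intervals of 135 to 29739 and 154 to 34223. In 41-OX its ratio was 10.2 (6.14 to 18.2), and 136 (24.0 to 5429) without 41-OX root 4.

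RD29A, COR47 and the ZAT genes were counted well in both organs. RD29A was lower in roots than in shoots, with a log2 change of -2.29 (SE 0.23) in pxy, -0.43 (SE 0.21) in 41-OX and -1.64 (SE 0.21) in WT. The values of the organs did not overlap in pxy or WT, and they overlapped in 41-OX. ZAT10 and ZAT12 were higher in roots than in shoots of pxy, by 0.92 (SE 0.29) and 1.48 (SE 0.33) on the log2 scale, without overlap.

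In 41-OX the log2 changes of roots against shoots were 0.10 for ZAT10 and 0.50 for ZAT12. In WT they were -0.86 (SE 0.25) for ZAT10 and -0.38 for ZAT12, and without WT shoot 3 they were -0.11 and 0.43. COR47 had log2 changes of -0.10 in pxy, 0.04 in 41-OX and -0.10 in WT, and -0.23 in WT without WT shoot 3. These are descriptions, since the shoot levels of the genes were known when they were chosen.

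The gene lists below were also chosen with earlier results of these data known, so their calls and p-values are read as a description. Genes upstream of the CBFs were taken from a list of 18 regulators, of which 16 were tested in shoots. The list was not split into activators and repressors, so its direction is not read as a change in CBF activation. In 41-OX against WT shoots 6 fell and none rose, where 15.8% of all genes tested fell, and the median log2 change of the list was -0.18, against 0.00 over all genes. MPK3, a kinase of stress signalling, was lowest with -0.94 (SE 0.09, adjusted p = 5.36e-08), and CRLK1, a calcium-regulated receptor-like kinase, fell by 0.70 (SE 0.10, adjusted p = 8.64e-06) on the log2 scale. CAMTA3, a calmodulin-binding activator of CBF genes, fell with -0.40, and ICE1, the bHLH activator of CBF3, had -0.14 and did not pass (adjusted p = 0.155). In pxy against WT shoots CRLK1 (-0.50) and MPK3 (-0.36) fell and OST1 (0.44), a kinase of abscisic acid signalling, rose, and the other 13 did not pass. Of all genes tested there, 1.26% fell and 0.436% rose. Without WT shoot 3 the counts there were 1 lower and 1 higher.

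Among 16 relatives of the CBFs and other early cold-induced factors, 13 were tested. In 41-OX shoots 7 fell, 1 rose and 5 did not pass against WT, where 15.8% of all genes fell and 15.1% rose, with a median log2 change of -0.50. ERF5, an ethylene response factor, averaged 8.87 ± 2.46 CPM in 41-OX and 25.3 ± 3.45 CPM in WT shoots (SD, n = 4 and 3) and fell with -1.52 (SE 0.16), RAV1 fell with -0.73 (SE 0.08), and DREB2C rose with 1.16 (SE 0.20). Without WT shoot 3 the split was 5 lower and 2 higher. In pxy shoots 2 fell against WT, where 1.26% of all genes fell, ERF5 with -1.17 (SE 0.16) and CZF1 with -0.67 (SE 0.11).

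Of 19 further cold-regulated genes, 17 were tested in shoots. Against WT, 6 fell and 3 rose in 41-OX shoots, where 15.8% of all genes fell and 15.1% rose, with a median log2 change of -0.08. The early dehydration gene ERD7 fell with -1.24 (SE 0.14), the beta-amylase gene BAM3 with -0.89 (SE 0.14) and COR413IM1, which encodes a protein of the chloroplast inner envelope, with -0.87 (SE 0.11). ADH1, for alcohol dehydrogenase, rose with 1.92 (SE 0.25), COR27 with 1.25 (SE 0.25) and the locus AT4G33980 with 0.90 (SE 0.15). In pxy shoots none fell and 2 rose against WT, AT4G33980 (0.83, SE 0.15) and the dehydrin gene LTI30 (0.46, SE 0.10), where 0.436% of all genes rose, and without WT shoot 3 none of the list was called by edgeR. In 41-OX against pxy shoots 10 fell and 1 rose, where 14.7% of all genes fell and 14.5% rose, with COR413IM1 at -1.21 (SE 0.10) and the cold-induced gene KIN2 at -1.17 (SE 0.12).

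In roots the same list had calls in 41-OX. Of 18 genes tested, 3 fell and none rose against WT roots, where 4.65% of all genes fell: KIN1 (-0.58, SE 0.14), LTI30 (-0.54, SE 0.10) and KIN2 (-0.50, SE 0.12). KIN1 and KIN2 are near-identical neighbours, so how reads were split between them is uncertain. Against pxy roots 5 fell, where 6.67% of all genes fell and 3.1% rose, LTI30 with -0.73 (SE 0.11) and ERD10, another dehydrin gene, with -0.52 (SE 0.10) among them. Leaving out 1 library, the count against WT roots ranged over 1 to 3, with 1 called without WT root 1, WT root 2 or 41-OX root 3. Against pxy roots it ranged over 3 to 7. Among 7 tested relatives of the ZAT genes, ZAT6 (-0.76, SE 0.17) and AZF2 (-0.62, SE 0.17) fell in 41-OX against WT roots, as ZAT10 did, and neither was called without WT root 3 or without 41-OX root 2. In 41-OX against pxy roots AZF2 fell with -0.82 (SE 0.18) and ZAT11 rose with 0.86 (SE 0.25), a rise that was not called by DESeq2 or without any 1 of the pxy or 41-OX root libraries. Against WT roots ZAT11 was at -0.23 (SE 0.21) in 41-OX and at -1.08 (SE 0.25) in pxy, and neither passed. In 41-OX shoots ZAT10 lay below WT, while ZAT12 overlapped WT and was at -0.34 without WT shoot 3. Of 5 tested relatives none was called in 41-OX against WT shoots by edgeR or DESeq2, and 1 had an unadjusted p under 0.05. The median log2 change of the 5 was -0.14, with AZF3 at 0.45 (SE 0.20) and AZF1 at 0.16 (SE 0.16) above it. Without WT shoot 4, 1 of 6 tested was called lower. In pxy against WT shoots AZF1 fell with -0.77 (SE 0.17), where 1.26% of all genes fell, and the list median was -0.44. No relative was called there without WT shoot 3. In pxy against WT roots no gene of these lists was called by edgeR or DESeq2. There 3 of the 18 cold-regulated genes and 1 of the 7 ZAT relatives (ZAT11) had an unadjusted p under 0.05.

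Genes of abscisic acid and dehydration had calls in 41-OX. In 41-OX shoots 10 of 17 fell and 1 rose against WT (8 and 1 without WT shoot 3), where 15.8% of all genes fell and 15.1% rose, with a median log2 change of -0.49, and in pxy shoots none was called by edgeR or DESeq2, with 1 at an unadjusted p under 0.05. P5CS1, an enzyme gene of proline synthesis, fell with -0.97 (SE 0.14) in 41-OX shoots and RD20 with -1.10 (SE 0.23), while the late embryogenesis gene LEA4-5 rose with 1.12 (SE 0.26). In 41-OX roots 4 of 15 fell against WT, where 4.65% of all genes fell, with the homeobox genes HB7 at -0.86 (SE 0.11) and HB12 at -0.82 (SE 0.18) and the phosphatase gene ABI1 at -0.51 (SE 0.11).

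Touch- and wound-induced genes, which respond quickly to handling, had the lowest medians of the 8 lists, all chosen with earlier results of these data known. All 8 of those tested fell in 41-OX against WT shoots, where 15.8% of all genes fell, with a median log2 change of -1.60. In pxy against WT shoots 5 of 8 fell, where 1.26% of all genes fell, with a median of -0.93. The touch genes TCH2 (-0.28, SE 0.11), TCH3 (-0.19, SE 0.12) and TCH4 (-0.08, SE 0.13) did not pass in pxy. CML38 fell with -2.32 (SE 0.19) in 41-OX and -1.43 (SE 0.18) in pxy shoots, and WRKY40 with -1.83 (SE 0.15) and -1.22 (SE 0.14). Both counts held without WT shoot 3. Their summed level reached 1199.8 CPM in pxy shoots (lowest 1019) and 850.5 CPM in 41-OX shoots (lowest 586), against 1427 CPM in WT shoots (lowest 1386). The CBF and ZAT levels were lowered in the same libraries, and how far they are tied to these genes was not tested. In 41-OX against WT roots, where ZAT10 fell, none of 9 fell and ERF6 rose with 0.76 (SE 0.18), where 1.92% of all genes rose.

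Clock genes were checked because the CBFs follow the clock. Of 12 tested in 41-OX against WT shoots 4 rose and 4 fell, where 15.1% of all genes rose and 15.8% fell, with ELF4 at 0.72 (SE 0.12) and the morning genes CCA1 at -0.92 (SE 0.16) and PRR9 at -1.26 (SE 0.15). In pxy against WT shoots LUX alone was called, with 0.40 (SE 0.09), where 0.436% of all genes rose. No clock gene was called there without WT shoot 1, WT shoot 3, pxy shoot 1 or pxy shoot 3. Of 12 oxidative stress genes, 3 rose and 4 fell in 41-OX shoots, where the same shares of all genes did, with the NADPH oxidase gene RBOHD at -0.82 (SE 0.16), while in pxy shoots none was called by edgeR, 3 had an unadjusted p under 0.05 and DESeq2 called 2. Without WT shoot 3 the 41-OX split was 1 higher and 5 lower.

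**Figure D5:**
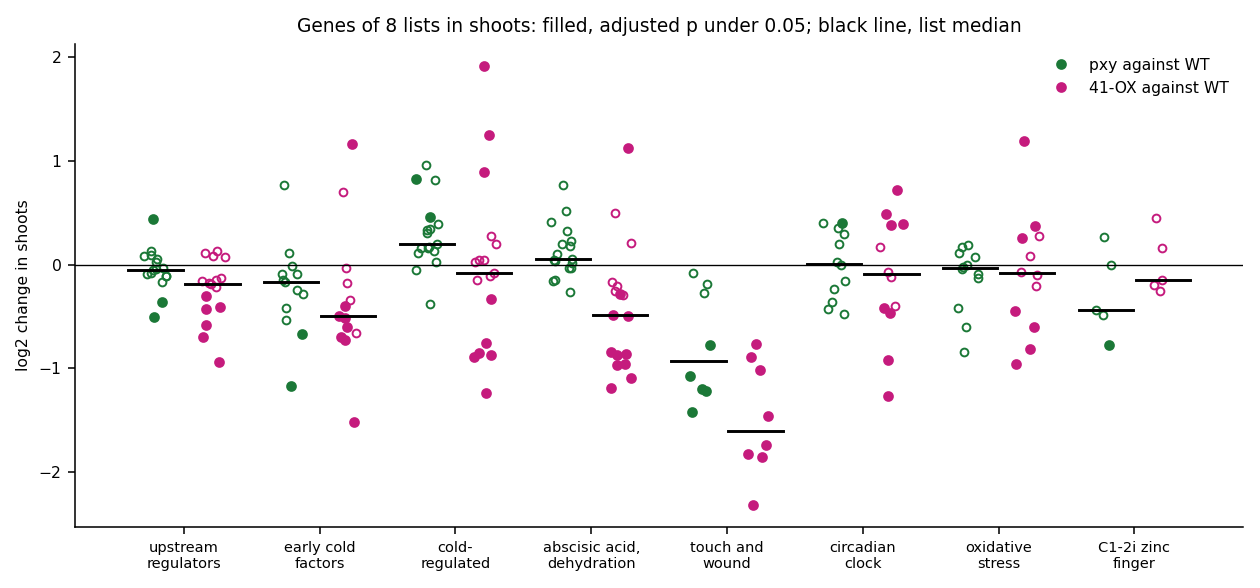
Log2 change in shoots of each tested gene of 8 lists for pxy against WT and 41-OX against WT. Filled points passed an adjusted p of 0.05, open points did not and black lines are list medians, and the touch and wound genes have the lowest medians (-0.93 in pxy and -1.60 in 41-OX).

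Beside all 41-OX shoot results stands a different marker content. Of 10 root markers, 9 were tested and 9 rose in 41-OX against WT shoots, where 15.1% of all genes rose. Their summed levels were 139.8 to 193 CPM in 41-OX shoots, against 31.7 to 49.9 CPM in WT shoots. Of 8 shoot markers, 5 fell, where 15.8% of all genes did, LHCA3 with -0.36 (SE 0.10) among them. Leaving out 1 library, 2 to 6 shoot markers were called lower. In pxy shoots none of either list was called by edgeR or DESeq2 against WT, and 1 root marker had an unadjusted p under 0.05. The part of this marker content in the lower CBF, COR15 and RD29A values of 41-OX shoots was not tested.

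The genes most like a member were taken over the 22 libraries by the root mean square difference of log2 CPM, each gene centred on its own mean, among 17476 genes. For CBF1, which itself varied by 2.51 on this scale, they were AT3G62950 and AT4G16880 (0.53 each), FUM2 and ARF11 (0.58 each) and AT2G36630 (0.65), and CBF2 stood at 0.54. For ZAT10, which varied by 0.62, they were AT3G10930 (0.36), PBP1, WRKY33, ACS6 and the cytokinin response regulator gene RR5, with ZAT12 at 0.38. For COR15A, which varied by 2.86, COR413IM1 (0.65) was the nearest gene outside the 9, followed by FRO7, FRO6, AT2G23840 and AT1G51805, and COR15B was closer than any of them at 0.40. Over the 22 libraries CBF1 stood at 0.85 from COR15A but 1.82 from RD29A and 2.48 from COR47, and ZAT10 stood 2.57 from CBF1. These distances take in the gap between shoots and roots, where CBF1 and COR15A were close to absent. The 2.48 from COR47 is close to the 2.51 by which CBF1 itself varied. In pxy against WT shoots the log2 changes of CBF1 and COR15A were -1.35 and 0.69.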

How the data were processed

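RNA from roots and shoots of pxy, 41-OX and WT seedlings was sequenced, and the authors deposited whole-number read counts per locus for 24 libraries in one table. Per the submitters' processing notes, CASAVA, TopHat2 and HTSeq were used with TAIR10. The annotation release, overlap mode and strand setting are not given in the sources used here. Of the 2 technical replicates that the design text gives for a sample, the table shows no separate columns. Reads with no feature (1.82% to 3.41%) and ambiguous reads (1.80% to 2.61%) stayed out of the totals.

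Groups came from the sample labels. The 11 root libraries (20300 genes), the 11 shoot libraries (20163) and, for organs, all 22 (21397) were fitted with edgeR 4.0.16 in R 4.3.3 (filterByExpr, TMM, robust quasi-likelihood F test, two-sided), with Benjamini-Hochberg adjustment over all genes tested and a threshold of 0.05. The SE is the log2 change divided by the square root of F. Fitted changes of genes near 0 depend on the prior count, so pooled counts with exact 95% intervals (SciPy 1.17.1) are given for them. These intervals hold counting error alone, because counts were pooled over libraries and the spread between libraries is not in them. Copies made by PCR are counted as separate reads, so the intervals may be too narrow even for counting error. Labels call the replicates biological and say no more of their origin. The scripts were tested on simulated counts.

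The members, gene lists and tests were chosen with earlier results of these data known. Named genes of a list are up to 3 per direction with the largest called change at an average log2 CPM of at least 1. ICE1, CAMTA3, AZF1 and AZF3 were named after their values were seen. Lengths, starts and sequences are RefSeq's for TAIR10.1 (Biopython 1.88), and exons may be longer than the counted features. Alternatives were DESeq2 1.42.0, its size factors, no filter, a replicate block, all 24 libraries, a fit with other libraries and leaving out each library. A library was left out only in comparisons that include its own group.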

Additional observations from a re-analysis of the deposited data

Results flagged for a closer look

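In 6 of 36 sets of 4 libraries, 1 library stood apart from the other 3 by Dixon's test. Chance does this in about 1 in 20 groups of continuous values, a rate that does not hold for counts near 0, so no weight is put on the number of such sets. The library 41-OX root 4 was the high one for CBF1 (1.04 CPM, others 0 to 0.0736), COR15A (1.04 CPM, others 0 to 0.169) and COR15B (1.67 CPM, others 0 to 0.0736), and it held the most shoot marker signal of the root libraries used, whose part in these values was not tested. CBF2 in pxy shoot 2 was at 18.4 CPM (others 12.9 to 13.5), ZAT10 in 41-OX root 1 at 5.44 CPM (others 4.59 to 4.65) and COR15B in WT root 1 at 0.0825 CPM, which is 1 count where the others had 0.

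CBF3 was higher in every pxy than in every WT root, by 0.91 on the log2 scale of mean levels, and lower in every pxy than in every WT shoot. The difference between the organs was not tested, and the root values rest on 10 and 9 counts.

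The library labelled pxy root 2, which was left out, held several of the genes far above the WT roots. In CPM without TMM scaling it held CBF1 at 17.1 (WT roots 0 to 0.198), CBF2 at 21.5 (0.105 to 0.561) and CBF3 at 4.38 (0.0935 to 0.297). COR15A was at 17.0 (0 to 0.198), COR15B at 12.5 (0 to 0.0935), COR47 at 499.5 (425 to 476) and RD29A at 176 (41.5 to 52.2). Shoot markers stood in it at 89.9% of the WT shoot mean, which was TMM-scaled.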

How the results depend on the processing

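Of the alternative log2 changes of the 9 genes, 814 kept direction and side of the threshold, 36 lost a call, 15 gained one and 14 changed sign. Genes called in pxy against WT roots were 8, and 89 by DESeq2, 1 with all 24 libraries as labelled, 3 with the replicate block, 14 with the shoots in the fit and 3 to 10 leaving out 1 library. In 41-OX against WT roots they were 1332, 137 with all 24 and 859 to 1277 leaving out 1. In 41-OX against pxy roots they were 1983, 230 with all 24, 1136 with the block, 3276 with the shoots in the fit and 1247 to 2565 leaving out 1. In pxy against WT shoots they were 343, 143 with the roots in the fit and 117 (without WT shoot 3) to 397 leaving out 1. Of the 9 genes, 0 in place of 1 was called in 41-OX against WT roots and 1 in place of 2 in 41-OX against pxy roots, with all 24 libraries or the shoots in the fit. No count is given for roots against shoots, because the CBF and COR15 genes passed the count minimum only through the shoots. With all 24, the log2 change of CBF1 in pxy roots against shoots was -0.85 in place of -6.17. Leaving out 1 library gave 1 to 2 in 41-OX against pxy roots and 2 to 5 in pxy against WT shoots. The cause was not tested, except that the 24 include the libraries left out.

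Changes of sign were as follows on the log2 scale. With all 24 libraries, ZAT10 was 0.13 in pxy against WT roots, and RD29A was 0.95 in pxy against WT roots and -0.92 in 41-OX against pxy roots. RD29A in 41-OX against WT roots was -0.0129 with the replicate block. Leaving out 1 library gave -0.0832 to 0.0455 for ZAT10 in pxy against WT roots (above 0 without WT root 2 or pxy root 4), -0.0872 to 0.12 for RD29A in 41-OX against WT roots (below 0 without WT root 1, WT root 4, 41-OX root 2 or 41-OX root 4) and -0.0697 to 0.0037 for COR47 in 41-OX against WT roots (above 0 without 41-OX root 4). It gave -0.0281 to 0.10 for ZAT10 in 41-OX against pxy shoots and -0.0223 to 0.0756 for COR47 in 41-OX roots against shoots, both below 0 without 41-OX shoot 4, and -0.68 to 0.43 for ZAT12 in WT roots against shoots, above 0 without WT shoot 3. Same-numbered libraries did not pair (correlations of -0.49 to 0.33 over 30 pairs, 4 over 0.1), and the replicate block gave 252 calls in pxy against WT, 5181 in 41-OX against WT shoots and 918 in 41-OX against WT roots. Low root counts limit CBF and COR15 values there.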
